A study of Mus musculus with 4 samples.

Results

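The astrocyte genes described here are the 10 genes Gfap, Aqp4, Slc1a2, Slc1a3, Aldoc, Gja1, Aldh1l1, Fgfr3, Fabp7 and Agt, chosen by symbol as genes known to be made by astrocytes, and all 10 were among the 24873 genes of the table. RNA was sequenced from 4 libraries of sorted mouse brain cells, 2 control and 2 tamoxifen, to ask what changes in brain endothelial cells when Mgp, an extracellular inhibitor of BMP signaling, is deleted. All mice, controls included, carried the genotype given as Cdh5cre;Mgpflox/flox, in which a tamoxifen-inducible Cre under the VE-cadherin (Cdh5) promoter is meant to act in endothelial cells. Tamoxifen mice were injected at 10 weeks of age with 75 mg/kg daily for 5 days and collected on day 9, and control mice were littermates that received no tamoxifen. Each library pooled the cells of 3 mice, so the n of 2 per group counts pools. The labels call the cells brain tdTomato+, while the study's methods describe a sort for CD31+CD45- cells, and neither gate is meant to take astrocytes. The table names its tamoxifen columns with the letter A, which the sample labels do not use, and these were read as the tamoxifen libraries because the other letter, C, belongs to the controls.

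Astrocytes are glial cells that wrap brain vessels with their end-feet, clear glutamate from synapses and handle water and potassium. The 10 genes stand for these jobs: a filament protein (Gfap), a water channel of the end-feet (Aqp4), glutamate transporters (Slc1a2 and Slc1a3), metabolic enzymes (Aldoc and Aldh1l1), a gap junction protein (Gja1), a growth factor receptor (Fgfr3), a lipid-binding protein shared with radial glia (Fabp7) and the precursor of the angiotensin peptides (Agt). Gfap is the gene most often used to mark reactive astrocytes, those that respond to injury. Of the 10, Gja1 is also made by vascular cells. In GENCODE M39 on GRCm39, Gfap lies at chr11:102778159-102791738 (minus strand), Slc1a2 at chr2:102488574-102621129 (plus), Slc1a3 at chr15:8663604-8741595 (minus), Aldoc at chr11:78213619-78218889 (plus), Gja1 at chr10:56253241-56278609 (plus), Aldh1l1 at chr6:90463409-90577185 (plus), Fgfr3 at chr5:33879018-33894412 (plus), Fabp7 at chr10:57660956-57664554 (plus) and Agt at chr8:125279301-125296716 (minus). Gja1 and Fabp7 share chr10, and Gfap and Aldoc share chr11.

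The deposited values were read counts per gene divided by the authors by 1 size factor per library, called normalized counts below. This did not make the totals equal, which were 51330925 and 51346697 in controls and 38352708 and 35800643 with tamoxifen, 0.722 of the controls. Dividing by the value of 1 read gave back 35387438 to 49799321 reads per library on genes. Mgp itself read 1094 and 1352 normalized counts in controls against 945 and 909 with tamoxifen, a log2 difference of -0.39 (SE 0.18) that missed the threshold (limma, adjusted p = 0.0986, n = 2 and 2). Which exon the Cre removes was not given in the sources used here, so whether these reads can check the deletion is not known. By real-time PCR, the paper reported a progressive fall of Mgp in sorted brain endothelial cells of this mouse line after tamoxifen. In that assay Mgp reached a small part of the control level at a time point later than day 9. Here the tamoxifen mean on day 9 was 0.758 of the control mean. The 12 endothelial markers together took 2.74% and 2.60% of all counts in controls but 0.582% and 0.304% with tamoxifen, and all 12 were called lower. The lowest endothelial share belonged to tamoxifen library 2. Pecam1, the gene of CD31, read 83681 and 88796 normalized counts in controls against 15987 and 8973 with tamoxifen and was called lower. Ptprc, the gene of CD45, read 50.7 and 83.9 against 1423 and 1119 and was called higher. This difference in marker content runs along with every result below, and its part in them was not tested. In bulk RNA, more cells of a type and more RNA per cell cannot be told apart.

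All 10 astrocyte genes rose in the tamoxifen libraries, by 2.88-fold (Gja1) to 25.0-fold (Fabp7) in group means, and in each of the 10 both tamoxifen libraries lay above both control libraries. A gene was called when the adjusted p of limma over 20485 genes (those whose mean level reached 10 normalized counts) was under 0.05 and the log2 difference was above 1 in size. By that rule 28.6% of all genes tested were called higher and 16% lower, and 43.1% had both tamoxifen libraries above both controls. The median log2 difference was 3.01 over the 10 astrocyte genes and 0.05 over all genes tested. Together the 10 genes took 0.0596% and 0.0710% of all counts in controls, against 0.418% and 0.926% with tamoxifen. They were thus already detected in the controls, where the lowest count behind any value was 89 reads. The libraries rescaled to one total, or quantile normalized, put the share of all calls that were higher at 79.7% or 47.2% in place of 64.1%, with the median gene moved by 0.47 or -0.25 on the log2 scale, and all 10 were still called higher under both.

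**Figure D1:**
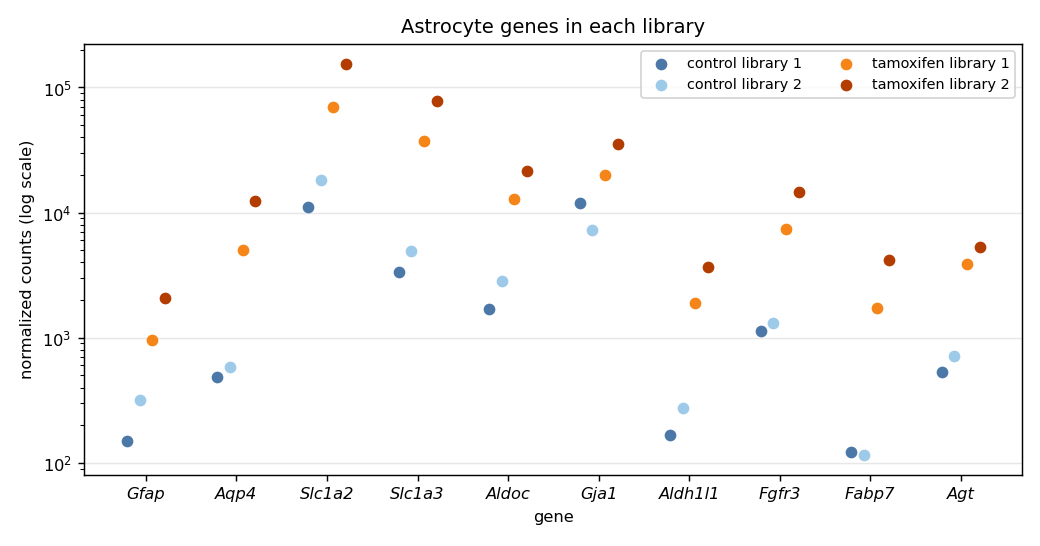
Normalized counts of the 10 astrocyte genes on a log axis, with 1 point for each of the 2 control and 2 tamoxifen libraries. For every gene both tamoxifen points lie above both control points, and tamoxifen library 2 is the highest of the 4.

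The filament and water channel genes come first. Gfap, which encodes the glial intermediate filament protein, read 151 and 315 normalized counts in controls against 955 and 2067 with tamoxifen, with group means of 233 ± 116 and 1511 ± 786 (SD, n = 2 and 2). The groups did not overlap, but the 2 libraries of each group differed by about as much as each other, with a ratio of 2.09 in the controls and 2.16 in the tamoxifen pair. Its log2 difference was 2.68 (SE 0.44, adjusted p = 0.00137, limma). Without tamoxifen library 2 it was 2.13 and no longer called (adjusted p = 0.0978, limma).

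Aqp4, the water channel of the end-foot membrane, had 485 and 581 normalized counts in the controls and 4983 and 12397 in the tamoxifen libraries, 533 ± 67.8 against 8690 ± 5242 (SD, n = 2 and 2). Control values lay close together, whereas the tamoxifen values were the most unequal pair of the 10 genes. The log2 difference was 3.89 (SE 0.37, adjusted p = 0.000116, limma), and it was 3.23 without tamoxifen library 2 and 4.54 without tamoxifen library 1, both called.

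The glutamate transporters were the most abundant members in the tamoxifen libraries. Slc1a2, which clears most of the glutamate released in the forebrain, had 11049.6 and 18112 normalized counts in the controls and 69316 and 155205 in the tamoxifen libraries (14581 ± 4994 against 112261 ± 60733, SD, n = 2 and 2). Slc1a3, its relative that is also made by radial glia and by the Bergmann glia of the cerebellum, had 3349 and 4930.0 against 37678 and 77311 (4140 ± 1118 against 57495 ± 28025). Neither gene had overlapping groups, and Slc1a3 rose more, by 13.9-fold in group means against 7.70-fold. The log2 differences were 2.87 for Slc1a2 (SE 0.42, adjusted p = 0.000752, limma) and 3.73 for Slc1a3 (SE 0.35, adjusted p = 0.000104, limma). After quantile normalization they were 3.85 and 4.47. Read within a library, which cancels any scaling between libraries, Slc1a3 amounted to 0.303 and 0.272 of Slc1a2 in the controls and to 0.544 and 0.498 in the tamoxifen libraries.

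The metabolic enzymes moved by different amounts. Aldoc, the aldolase of glycolysis that astrocytes use, had 1694 and 2846 normalized counts in the controls and 12768 and 21688 in the tamoxifen libraries, a log2 difference of 2.92 (SE 0.31, adjusted p = 0.000176, limma). Aldh1l1, an enzyme of folate metabolism often used as a marker of all astrocytes, had 167 and 275 against 1878 and 3657, a log2 difference of 3.60 (SE 0.36, adjusted p = 0.000127, limma). Both genes stood apart between the groups, with control library 2 above control library 1 and tamoxifen library 2 above tamoxifen library 1 in each.

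Gja1, the chief gap junction protein of astrocytes, rose least of the 10, except after quantile normalization (2.29, above the 2.12 of Gfap). It had 11915 and 7273 normalized counts in the controls and 19979.8 and 35343 in the tamoxifen libraries, 9594 ± 3283 against 27662 ± 10864 (SD, n = 2 and 2). It was the member whose control libraries were ordered most clearly the other way, library 2 over library 1 being 0.610 (95% interval 0.590 to 0.631). The log2 difference was 1.51 (SE 0.33, adjusted p = 0.00549, limma). Leaving out tamoxifen library 2 gave 1.10 (adjusted p = 0.134, limma) and leaving out tamoxifen library 1 gave 1.92 (adjusted p = 0.0526, limma), so the call needed both.

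Fgfr3, a fibroblast growth factor receptor that astrocytes keep from their progenitors, had 1129 and 1300.4 normalized counts in the controls and 7332 and 14514 in the tamoxifen libraries (log2 difference 3.09, SE 0.29, adjusted p = 0.000114, limma). Fabp7, a fatty acid binding protein of radial glia and astrocytes, had 122 and 115 against 1718 and 4208 (log2 difference 4.49, SE 0.39, adjusted p = 7.66e-05, limma). Fabp7 had the largest log2 difference of the 10, except after quantile normalization (where the 4.47 of Slc1a3 was larger), and the closest control pair, at 119 ± 4.78 normalized counts (SD, n = 2). Agt, which astrocytes secrete as the source of angiotensin in brain, had 533 and 713 against 3864 and 5275 (log2 difference 2.87, SE 0.22, adjusted p = 4.83e-05, limma). Agt had the smallest standard error of the 10, since its tamoxifen libraries were the most alike.

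**Figure D2:**
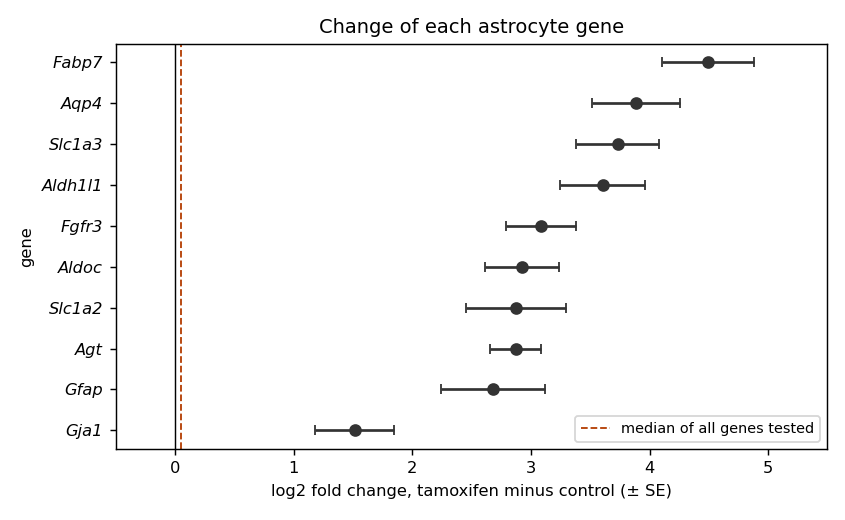
Log2 difference between tamoxifen and control libraries for the 10 astrocyte genes as points, with bars of 1 standard error of the limma fit (2 libraries a group) and a dashed line at the median of all genes tested. All 10 lie above the line at 0.05, from 1.51 for Gja1 to 4.49 for Fabp7.

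Upstream sequence is shown for the members whose 250 bases before the annotated start held no base of an annotated exon of the gene: Gfap as the marker of reactivity, Slc1a2 as the most abundant and Fabp7 as the one with the largest log2 difference. The starts are those of the canonical transcripts in GENCODE M39 on GRCm39, and each window runs 5′ to 3′ on the gene's strand at chr11:102788186-102788435 (minus) for Gfap, chr2:102488324-102488573 (plus) for Slc1a2 and chr10:57660706-57660955 (plus) for Fabp7. The Gfap window lies inside the annotated span of the gene, which reaches 102791738, so it precedes the canonical transcript only. The windows of Slc1a2 and Fabp7 end just before the spans of their genes. Capitals mark the CCAAT box, the letters CCAAT on either strand.
Gfap: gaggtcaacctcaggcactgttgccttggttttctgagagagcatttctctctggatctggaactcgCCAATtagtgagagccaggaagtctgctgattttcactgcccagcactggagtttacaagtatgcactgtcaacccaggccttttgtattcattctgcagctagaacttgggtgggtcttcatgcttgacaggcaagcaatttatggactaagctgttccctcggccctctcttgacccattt
Slc1a2: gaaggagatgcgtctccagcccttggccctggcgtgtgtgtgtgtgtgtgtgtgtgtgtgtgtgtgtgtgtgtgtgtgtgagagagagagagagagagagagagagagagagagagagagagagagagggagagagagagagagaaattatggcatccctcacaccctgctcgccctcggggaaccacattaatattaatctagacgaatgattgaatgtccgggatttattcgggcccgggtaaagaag
Fabp7: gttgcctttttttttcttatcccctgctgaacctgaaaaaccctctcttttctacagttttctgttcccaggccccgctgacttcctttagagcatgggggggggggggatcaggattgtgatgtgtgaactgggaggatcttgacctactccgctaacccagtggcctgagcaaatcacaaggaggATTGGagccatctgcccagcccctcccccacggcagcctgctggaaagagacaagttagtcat
The CCAAT box of Gfap lies at -183 to -179 from the start and that of Fabp7, on the other strand, at -63 to -59. The Slc1a2 window holds none, and has a run of 46 bases of repeated TG followed by one of 48 bases of repeated AG. Both strands were searched in 9 of the 10 genes and in 15570 promoters of this length, with none left out for holding exon bases. Apart from the 3 shown, the windows of the 9 held 49 (Fgfr3) to 250 (Slc1a3) bases of an annotated exon of the gene. CCAAT was in 5 of the 9 and in 35.6% of all promoters, and TATAAA in 2 and 7.76%. The STAT site TTCCNGGAA was in Agt only among the 9 (1.06% of all), the AP-1 site TGANTCA in Gja1 only (4.8%), and the short NFI site TTGGCA in Aldoc only (10.7%). The full palindromic NFI site was in none of the 9 and in 0.0385% of all. Among the 9, all matches other than CCAAT lay in windows that held exon bases. A match describes letters in the window and not a bound site. The GC content was 48.8% for Gfap, 51.6% for Slc1a2 and 53.2% for Fabp7, all below the median of 56% over all promoters.

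Per kilobase of annotated exon, the levels of the 10 genes can be ordered within a library. The length counted every base that is exon in any annotated transcript, from 1279 for Fabp7 to 12302 for Gja1 and more for Slc1a2 and Slc1a3. The order between genes therefore depends on which transcripts are annotated, and other lengths were not tried. In tamoxifen library 2 the order was Slc1a2 (11091 normalized counts per kb), Slc1a3 (5297), Aldoc (4644), Fabp7 (3290), Gja1 (2873), Aqp4 (1891), Fgfr3 (1645), Agt (639), Aldh1l1 (429) and Gfap (362). Gfap, the classic astrocyte marker, was thus the lowest of the 10 there, and it was also lowest in tamoxifen library 1 at 167. In control library 1 Gja1 (969) and Slc1a2 (790) led, and in control library 2 Slc1a2 (1294) led, followed by Aldoc (609) and Gja1 (591). In both control libraries Aldh1l1 was lowest at 19.6 and 32.3. In the order of control means, readings of neighbours overlapped for Slc1a2, Gja1 and Aldoc, for Aqp4 (74.0 and 88.6) and Agt (64.5 and 86.4), and for Gfap and Aldh1l1. In the order of tamoxifen means, readings of neighbours overlapped except at Agt, whose 468 and 639 lay below both readings of Fgfr3 and above both of Aldh1l1. These overlaps compare readings across libraries, and tamoxifen library 2 was the higher for every member. Tamoxifen library 1 kept the order of library 2 but for some swaps of neighbours. There Aldoc (2734) was above Slc1a3 (2582), Gja1 (1624) above Fabp7 (1343) and Fgfr3 (831) above Aqp4 (760).

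The make-up of the astrocyte signal differed between the groups. As a share of the summed normalized counts of the 10 genes, Gja1 made up 38.9% and 19.9% in the controls and 12.5% and 10.7% in the tamoxifen libraries, while Slc1a3 went from 10.9% and 13.5% to 23.5% and 23.3%. Slc1a2 kept a like share, at 36.1% and 49.7% against 43.2% and 46.8%. Fabp7 held 0.398% and 0.316% against 1.07% and 1.27%, and Aqp4 held 1.58% and 1.59% against 3.11% and 3.74%. The shares of the groups did not overlap for Gja1, Slc1a3, Fabp7, Aqp4, Fgfr3 or Aldh1l1, whereas they did for Slc1a2, Aldoc, Agt and Gfap. An exact permutation test of 2 against 2 libraries cannot go below a two-sided p of 0.333, so these shares are given as values. Gfap was 0.0136 and 0.0174 of Slc1a2 in the controls and 0.0138 and 0.0133 in the tamoxifen libraries, and relative to Aqp4 it was 0.311 and 0.543 against 0.192 and 0.167. Relative to Slc1a2 its groups overlapped, and relative to Aqp4 it was lower in both tamoxifen libraries.

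**Figure D3:**
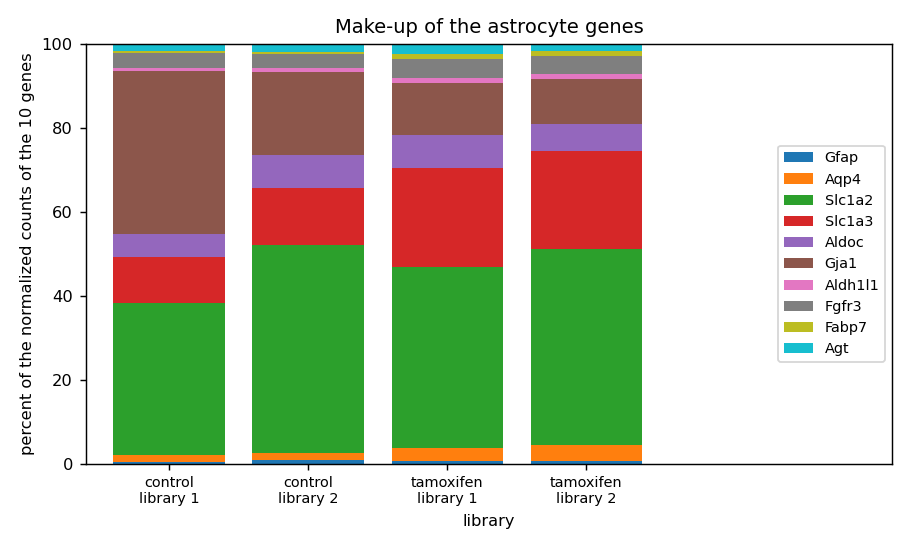
Share of the summed normalized counts of the 10 astrocyte genes taken by each gene, in percent, as stacked bars for the 4 libraries. The bar part of Gja1 shrinks from 38.9% and 19.9% in the controls to 12.5% and 10.7% in the tamoxifen libraries, and that of Slc1a3 grows.

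The 2 tamoxifen libraries, although given the same treatment, differed in every one of the 10 genes. Tamoxifen library 2 was higher than library 1 for 10 of 10, against 42% of all genes tested, and at least 2-fold higher for 5, against 8.18%. The median log2 ratio of library 2 to library 1 was 1.01 over the 10 genes and -0.08 over all genes. With exact conditional binomial intervals at 95%, which cover counting error alone, the ratios ran from 2.49 (2.41 to 2.57) for Aqp4 and 2.45 (2.32 to 2.59) for Fabp7 through 2.24 (2.22 to 2.26) for Slc1a2, 2.16 (2.01 to 2.34) for Gfap and 2.05 (2.03 to 2.08) for Slc1a3 to 1.37 (1.31 to 1.42) for Agt. Fgfr3 had 1.98, Aldh1l1 1.95, Gja1 1.77 and Aldoc 1.70, and all 10 intervals lay above 1. Counts this deep separate the libraries well beyond counting error, but 1 library against 1 has no replicate, and no test was made. The size depended on the scaling, as the median log2 ratio was 1.11 after rescaling to one total and 1.30 after quantile normalization.

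The controls offered a measure of how much a pair of pools can differ. Control library 2 was above library 1 for 8 of the 10 genes, against 54.5% of all genes, and at least 2-fold higher for Gfap alone, against a background of 8.61%. The median log2 ratio of the control pair was 0.49 over the 10 genes and 0.05 over all genes. The exceptions were Gja1 and Fabp7, and for Fabp7 the ratio of 0.945 had an interval of 0.698 to 1.28 that included 1. Agt and Aldoc had nearly the same ratio in both pairs, 1.34 and 1.37 for Agt and 1.68 and 1.70 for Aldoc.

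**Figure D4:**
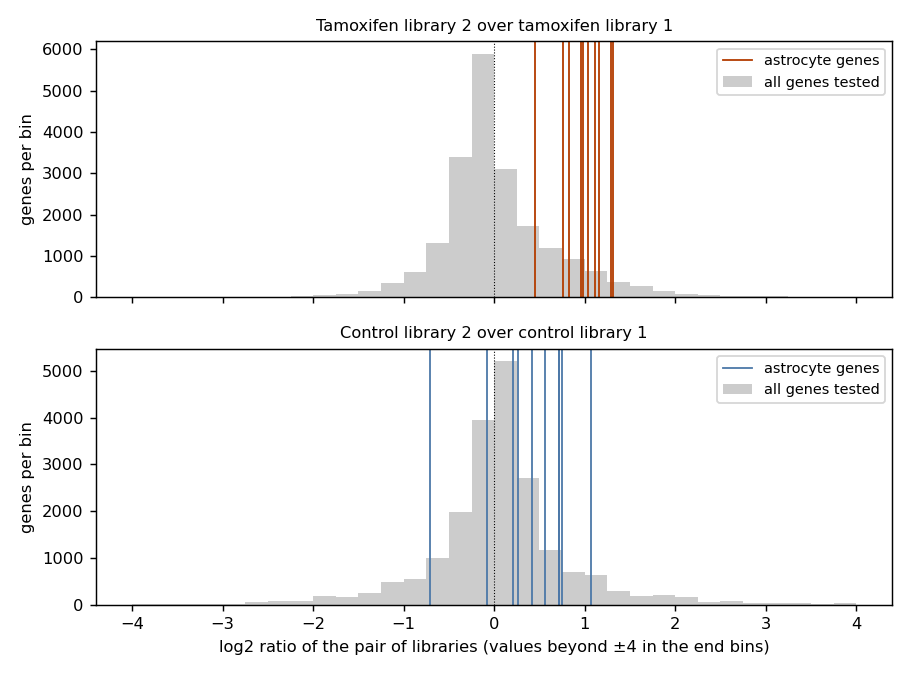
Log2 ratio of tamoxifen library 2 to library 1 (top) and of control library 2 to library 1 (bottom), with all genes tested as a grey histogram (genes per bin) and the 10 astrocyte genes as vertical lines. In the top panel all 10 lines lie right of 0, around a median of 1.01, while in the bottom panel 8 lie right of 0 and 2 left of it.

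Markers of other cells moved between the tamoxifen libraries as well. From library 1 to library 2 the endothelial markers fell in 12 of 12 genes (median log2 ratio -0.97). Pericyte markers were higher in library 2 in 8 of 8 (median 1.07), ependymal and choroid plexus markers in 8 of 8 (1.30), neuron markers in 9 of 10 (0.73) and oligodendrocyte precursor markers in 6 of 7 (0.90). By contrast, none of the 10 neutrophil genes (-0.44) and none of the 8 pluripotency genes (-0.38) were higher there, nor were 9 of the 10 cell cycle genes. Oligodendrocyte markers were higher in library 2 in 4 of 7 (0.0025) and microglial markers in 3 of 10 (-0.20). Astrocyte genes thus followed the same order as pericyte, ependymal, neuron and precursor markers, but not that of the oligodendrocyte and microglial lists. Ttr, the transthyretin of choroid plexus, had 793 and 3108 normalized counts in the controls and 7070 and 41530 in the tamoxifen libraries, the widest spread between the tamoxifen libraries among the markers named here. Its log2 difference from the controls was 3.45, and the call was lost without tamoxifen library 1 (4.72), without tamoxifen library 2 (2.17) and without the mean-variance trend. The part of these markers in the library difference was not tested.

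The same lists differed between tamoxifen and control. Neuron markers were called higher in 8 of 10 genes, with 0.00354% and 0.00435% of all counts in the controls and 0.0406% and 0.0715% in the tamoxifen libraries, yet the synaptic genes Snap25 and Syt1 were not called. Oligodendrocyte markers were called higher in 6 of 7 and precursor markers in 5 of 7. Microglial markers were called higher in 6 of 10 (0.00511% and 0.00805% against 0.0160% and 0.0148% of all counts), and pericyte markers in 2 of 8 (0.0694% and 0.127% against 0.126% and 0.260%). Ependymal and choroid plexus markers (8 of 8), neutrophil genes (10 of 10), cell cycle genes (10 of 10) and pluripotency genes (8 of 8) were all called higher. Neutrophil genes went from 0.000606% and 0.000480% of all counts to 0.295% and 0.235%, with 2 of the 10 at or under 3 reads in both controls. With 28.6% of all genes called higher, a rise was not particular to astrocyte genes.

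Of 32 further astrocyte genes, 28 were called higher, none lower and 4 were not called, with a median log2 difference of 3.29. All 32 were higher in tamoxifen library 2 than in library 1. Atp1b2, a sodium pump subunit, went from 4122 and 6441 normalized counts to 32195 and 58349 (log2 difference 3.07). The 4 not called were the highest of the list in the control means. Glul, the glutamine synthetase that converts the glutamate taken up by Slc1a2 and Slc1a3, had 49718 and 56459 against 39410 and 57276, and Sparcl1, a secreted matrix protein, had 139883 and 155514 against 77650 and 109248. The nuclear factors Nfia and Nfib had log2 differences of -0.26 and -0.53. These 4 also changed sign with the scaling or the library left out.

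**Figure D5:**
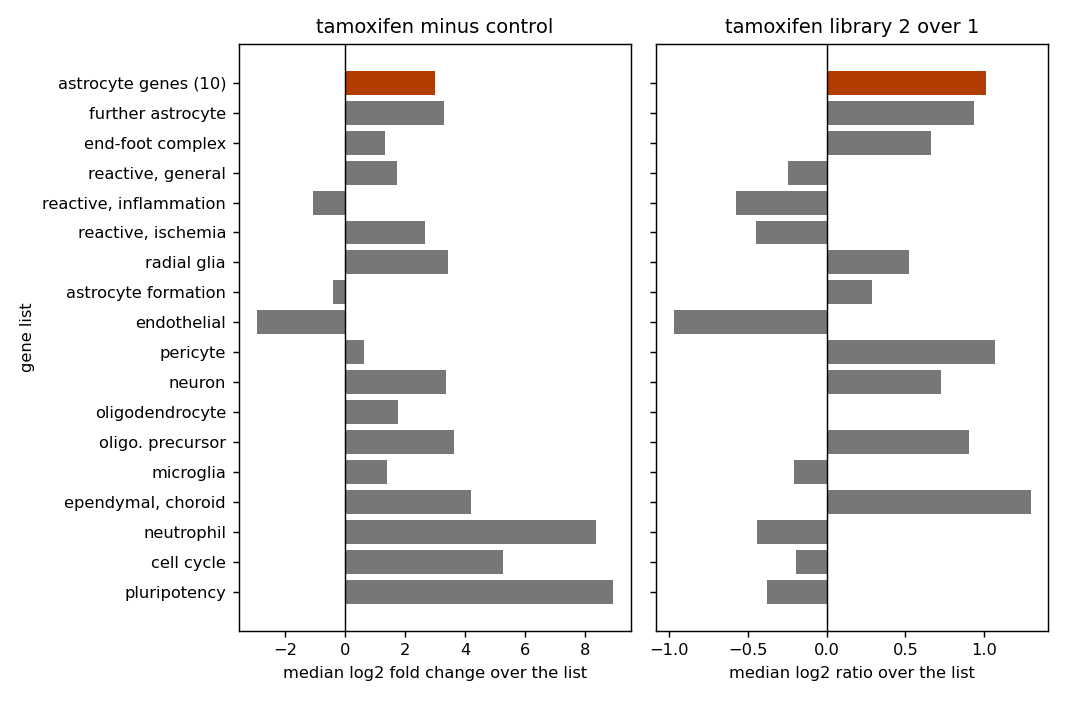
Bars give the median over each gene list of the log2 difference between tamoxifen and control libraries (left) and of the log2 ratio of tamoxifen library 2 to library 1 (right), with the 10 astrocyte genes on top. The further astrocyte genes reach 3.29 beside 3.01 for the 10 genes at left, and the endothelial list has the lowest bar in both panels, with -0.97 at right.

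The partners of the members moved in both directions. Of 9 genes of the end-foot complex that anchors Aqp4, 6 were called higher, 2 lower and 1 not. Kcnj10, the potassium channel beside Aqp4, rose by 2.04 on the log2 scale but lost its call without either tamoxifen library (2.54 without library 1 and 1.54 without library 2). Agrn, a matrix proteoglycan also made by endothelium, and Utrn, a dystrophin relative, fell by 2.02 and 2.31 (Agrn by 0.86 and not called after quantile normalization), and Dag1 was not called but was called higher after quantile normalization (1.05). Of 5 other aquaporins tested, 4 were called higher and Aqp11 was called lower. Aqp1, the water channel of choroid plexus and red cells, had 152 and 267 normalized counts in the controls and 7930 and 6142 in the tamoxifen libraries, with library 1 the higher, unlike Aqp4.

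Among 9 filament partners of Gfap, 6 were called higher and 2 lower. Vim, the filament shared by astrocytes and mesenchymal and endothelial cells, had 29345 and 33916 normalized counts against 39534 and 29116, with overlapping groups and no call (log2 difference 0.10), although it was called higher after quantile normalization (1.01). Nes and Synm, filament genes of progenitors and of vascular and glial cells, fell by 2.12 and 2.46. Of 9 genes of glutamate handling, 3 were called higher, 3 lower and 3 not called. Slc1a1, the relative of Slc1a2 that neurons and other cells make, fell by 3.57 on the log2 scale, from 22386 and 20585 normalized counts to 2699 and 1203. The neutral amino acid carriers Slc1a4 and Slc1a5 rose by 2.09 and 1.84, and of the glutamine carriers Slc38a1 rose by 4.33 while Slc38a3 and Slc38a5 fell by 2.19 and 2.39.

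The connexin list gave 7 of 10 called higher, although 4 of the 10 were at or under 3 reads in both controls. Gjb6, the second astrocyte connexin, had 282 and 273 normalized counts against 3463 and 6346, a log2 difference of 4.07 that exceeded the 1.51 of Gja1, and Gjc1 fell by 1.40 (0.93 after rescaling to one total, not called). All 3 relatives of the enzymes were called higher, among them Aldoa, the aldolase of most tissues, by 1.23. All 4 other fibroblast growth factor receptor genes were called higher, Fgfr2 by 3.24, Fgfrl1 by 1.89 and Fgfr1 by 1.77. Fgfr2 went from 231 and 287 normalized counts to 1815 and 3294, so it followed the order of Fgfr3 in the 4 libraries. All 3 fatty acid binding genes tested beside Fabp7 were called higher, with Fabp5 at 93.1 and 176 against 1744 and 3415. Fabp3, the form of heart and muscle, had 17.8 and 7.51 against 1879 and 1402 and was higher in tamoxifen library 1. Of 8 genes that process or receive the product of Agt, 1 was called higher (Mme, a peptidase, by 5.11), 1 lower (Ace, the converting enzyme, by 1.45, and by 0.98 and not called after rescaling to one total) and 6 were not called.

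The lists of reactive astrocyte genes were mixed in direction. Of 12 genes raised in reactive astrocytes of any kind, 7 were called higher and 3 lower (Hspb1, Osmr and Cp), with a median log2 difference of 1.74. Of 12 genes linked to reactivity in inflammation, 4 were called higher, 6 lower and 2 not, with a median of -1.06, and C3, a complement gene that leukocytes also make, rose by 5.85 while H2-D1, H2-T23 and Srgn fell by 1.68, 2.68 and 1.80. Of 11 genes linked to reactivity in ischemia, 9 were called higher and 1 lower (Tm4sf1), among them Emp1 by 3.13 and S100a10 by 2.67. Between the tamoxifen libraries, 2 of the 12, 1 of the 12 and 0 of the 11 were higher in library 2, where all 10 astrocyte genes were higher. Osmr and H2-D1 lost their calls without tamoxifen library 2 (-1.24 and -1.36).

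Of 14 genes of radial glia, the embryonic progenitors that also make Fabp7 and Slc1a3, 10 were called higher and 4 lower, with a median log2 difference of 3.45. Ptprz1, a receptor phosphatase of glia and progenitors, had 1542 and 1882 normalized counts in the controls and 14320 and 38626 in the tamoxifen libraries, and like Aqp4 and Fabp7 it was over 2-fold higher in tamoxifen library 2. The 4 that fell were Hes1, Nes, Prom1 and Notch1, of which Notch1 lost its call after rescaling to one total or quantile normalization (-0.91 and -0.69). Of 12 factors that act in astrocyte formation, 5 were called higher, 1 lower (Id3) and 6 not called, with a median of -0.38.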

How the data were processed

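Libraries of stranded mRNA were made from sorted mouse brain cells, 2 control and 2 tamoxifen, each from 3 pooled mice. The deposited table holds a signal per gene: read counts that the authors obtained with STAR 2.7.10a on GRCm39 and divided by a DESeq2 1.36.0 size factor, after leaving out genes with low counts. The annotation release and the strand setting used in counting are not given in the sources used here, so reads of overlapping genes may be shared. Dividing each column by the value of 1 read gave whole reads for 100% of values (tolerance 0.01), with 35387438 to 49799321 reads per library. Columns marked C match the control labels; those marked A were read as tamoxifen.

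Values were tested as log2(value + 1) with limma 3.58.1 in R 4.3.3 (mean-variance trend) over genes with a mean of at least 10, with Benjamini-Hochberg adjustment, all 4 libraries and no covariate; log2 differences are on this scale and understate the change of low genes. Calls needed an adjusted p under 0.05 and a log2 difference over 1. P-values measure the spread between pools, with the spread shared across genes. Alternatives were edgeR 4.0.16 and DESeq2 1.42.0 on the recovered reads, other pseudocounts, filters and scalings, a replicate block and leaving out each library. Ratios between libraries carry exact conditional binomial intervals. The fit was tested on simulated data. Promoters and exon lengths came from GENCODE M39 on GRCm39, in which 24451 of 24873 symbols were found. The members, gene lists and tests were chosen with earlier results of these data known. Named genes were all members, up to 4 of the most abundant genes of each list, partners with a mean of at least 1000 and the 5 genes nearest in pattern; Snap25 and Syt1 and some genes called lower or not called were added after their values were seen. Pecam1 and Ptprc were also named after their values were seen, as the genes of the sort markers. The Aqp4 promoter was not used here.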

Additional observations from a re-analysis of the deposited data

How the results depend on the processing

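The 10 astrocyte genes kept their direction under all 15 alternatives (150 values, 147 on the same side of the threshold, the other 3 being the Gfap and Gja1 values given above). Other filters, no mean-variance trend, the replicate block and the adjusted p alone leave every log2 difference as it was. Direction could not change under these, for members or for other genes. The adjusted p alone also keeps every call already made. The adjusted p of a member ran from 4.83e-05 (Agt) to 0.00549 (Gja1) in the main limma fit. With a replicate block added to limma it fell as low as 5.99e-82 (Aqp4). The block leaves little in 4 libraries to estimate the spread of a single gene, so this value is not read as stronger evidence. The highest adjusted p came from Gja1 without tamoxifen library 2, where its log2 difference was 1.10. Astrocyte genes called higher numbered 8 to 10 with 1 library left out and 10 under every other alternative. Their median log2 difference was 2.62 to 3.52 with 1 library left out. Genes called higher over the whole table were 5867, 3540 with a mean of at least 100, and 3073 to 6466 with 1 library left out. Genes called lower were 3284, 1838 after rescaling to one total, 5276 after quantile normalization, 5228 by the adjusted p alone, and 1906 to 3535 with 1 library left out. The median log2 ratio of tamoxifen library 2 to library 1 was 1.11 after rescaling and 1.30 after quantile normalization. Of 810 values for other named genes, 778 kept their call and direction and 18 changed sign: Mgp to 0.079, Glul to 0.31, Nfia to 0.21 and Snap25 to 0.39 after rescaling; Sparcl1 to 0.55, Glul to 0.88, Nfib to 0.12, Nfia to 0.17 and Syt1 to -0.87 after quantile normalization; Snap25 to 0.14 with edgeR and 0.16 with DESeq2; and 7 with 1 library left out. With 1 library left out Glul ranged from -0.43 to 0.11, Nfia from -0.61 to 0.089, Vim from -0.12 to 0.33, Snap25 from -0.95 to 0.80 and Syt1 from -0.58 to 1.01. The cause was not tested.

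Replicate numbers are shared by the groups, but the labels do not say that a number marks a batch or a day. Over all genes tested, the deviations of same-numbered libraries correlated by 0.0251. Among the members, library 2 was above library 1 for 10 of 10 with tamoxifen and 8 of 10 in controls. The shares over all genes were 42% and 54.5%. Whether the number marks a batch was not tested. With the replicate block 10 astrocyte genes and 6064 genes in all were called higher, and 3461 lower. With 2 pools a group, a lone library left in a group is assumed to vary like the others. Each member had at least 89 reads in every library, so none was at or under 3 reads. At the lowest counts, those of Fabp7 in the controls, the interval of the library ratio still included 1 (0.698 to 1.28).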

Other observations

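Outside the members, the genes whose pattern over the 4 libraries lay nearest to the mean pattern of the 10 astrocyte genes were Abhd3, Map2, Adcyap1r1, Fgfr2 and Psd2, of 7779 whose mean level reached 1000 normalized counts. The measure was the root mean square difference of centred log2 values, 0.0274 for Abhd3, 0.0551 for Map2, 0.0599 for Adcyap1r1, 0.0664 for Fgfr2 and 0.0692 for Psd2. Abhd3 had 175 and 227 normalized counts in the controls and 1301 and 2649 in the tamoxifen libraries. Among the members, Fgfr3 lay nearest to their mean pattern (0.0759) and Gja1 farthest (0.916), with Fabp7 next (0.692). Map2 encodes a microtubule protein of neurons and Fgfr2 a relative of Fgfr3. With 4 libraries in 2 groups such likeness reflects mainly the group difference and the order of the libraries within each group.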
